A study of Quercus robur with 6 samples.

Results

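The microRNAs (miRNAs) miR156 and miR157 were followed through a degradome experiment on roots of pedunculate oak (Quercus robur). All calls named qrb-miR156 or qrb-miR157 in the deposited tables were taken, without any choice by value. They numbered 23 of 231 calls and fell on 7 of 89 cleavage sites and on 6 of 85 target transcripts. Of the 7 sites 6 belonged to miR156 (17 calls) and 1 to miR157 (6 calls). The study sequenced 6 libraries, 3 from wild-type seedlings kept well watered (control) and 3 from wild-type seedlings after 4 weeks of drought stress, with soil moisture lowered to 25% of the control level. All plants were first acclimatised for 8 weeks. Each library, titled as a biological replicate, combined meristematic zones of taproots and lateral roots, so the root types cannot be told apart, and the cultivation method (container or rhizotron) behind a library is not part of its title.

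A degradome library holds RNA fragments that lack a cap, read from their 5′ end. When a miRNA guides the slicing of a transcript, the fragment left behind starts at a fixed base of the target site, called the slice position, opposite base 10 of the miRNA. In land plants the miR156 family acts on transcripts of SQUAMOSA PROMOTER BINDING PROTEIN-LIKE (SPL) transcription factors, which promote the passage from the juvenile to the adult phase. In Arabidopsis the same module also acts on root branching, as plants with more miR156 form more lateral roots. miR157 is a close relative that is often counted in the same family. Of the 6 oak transcripts, Qrob_T0343720.2 was annotated as squamosa promoter-binding-like protein 16, a member of the SPL family. The other 5 had no annotation in the sources used here and are given by identifier.

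The guides and their sites are shown first, because the relatives differ by few bases. Sequences were copied from the deposited tables, read 5′ to 3′, with the seed (bases 2 to 8) in capitals. The miR156 sequence shown was that of 9 of the 17 miR156 calls.
miR156: uGACAGAAgagagugagc
miR157: uUGACAGAagauagagagc

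The miR156 sequence of 18 bases had the seed GACAGAA. The miR157 sequence of 19 bases began 1 base earlier, so its seed was UGACAGA. When the extra base of miR157 was set aside, the rest differed from the miR156 sequence by G11U and U14A, counted from the 5′ end of miR156. For comparison, the sequences of the other 25 miRNA names in the tables were 20 to 22 bases long.

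Only 3 target sequences were found for the 7 sites. Capitals mark the bases from the slice position onward, which begin the fragment that is sequenced.
miR156 target on 4 transcripts: gcucucucUCUUCUGUCA
miR156 target on 2 transcripts: ccucacucUCUUCUGUCA
miR157 target on 1 transcript: gcucucucuCUUCUGUCAA

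The first target sequence lay at 641 to 658 of Qrob_T0080520.2, 1144 to 1161 of Qrob_T0128920.2, 496 to 513 of Qrob_T0332840.2 and 1294 to 1311 of Qrob_T0343720.2, counted from the first base of each transcript of the PM1N set. The second lay at 142 to 159 of Qrob_T0191150.2 and 114 to 131 of Qrob_T0191090.2, and it differed from the first by G1C and U5A, counted from the 5′ end of the target. The miR157 target, at 496 to 514 of Qrob_T0332840.2, was the first sequence with 1 further base. A fragment that starts within a sequence shared by several transcripts may be shorter than what is needed to tell them apart, and the tables do not say how such reads were assigned. The calls at shared sequences are therefore uncertain as separate sites. All 6 transcripts were free of calls by other miRNA names.

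Pairing differed by miRNA and target. The miR156 sequence shown left base 14 unpaired on the first target and base 18 on the second. miR157 left base 12 unpaired on its target. The Allen score is a penalty for mismatches, with 0 for a perfect match. It was 1 for the 9 calls of the miR156 sequence shown and 2 for all calls of miR157. The MFE ratio divides the minimum free energy of the duplex by that of the miRNA bound to its full complement, and 1 is the highest value possible. For the miR156 sequence shown it was 0.942 on the second target, and on the first target 0.921 on 3 transcripts and 0.915 on Qrob_T0343720.2, in control replicate 3 alone. The other 8 miR156 calls scored 2 on the Allen scale, with MFE ratios of 0.872 on the first target and 0.893 on the second. They include the calls on Qrob_T0343720.2 in the other 5 libraries. For miR157 it was 0.9125. The median Allen score of the 23 calls was 2 and that of the 208 calls of other miRNAs was 3.75, and the median MFE ratios were 0.9125 and 0.839. An Allen score of 2 or less was listed for 26% of the calls of other miRNAs. The 23 calls repeat 7 sites over the libraries. They also come from sequences of 18 and 19 bases, against 20 to 22 for the other names, and the part of length was not tested.

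Calls were next followed through the 6 libraries. The evidence for a slice position is graded in categories. Category 0 is a slice position that is the single read maximum of its transcript, category 1 a shared maximum, category 2 a lower position that still exceeds the typical read level of its transcript, category 3 one that does not, and category 4 a position with 1 read. The tables list a pair only when its p-value passed 0.05. They hold no read counts, so the depth behind a call is unknown from them. Of the 17 calls of miR156, 8 were in category 0, 2 in category 1 and 7 in category 2. Of the 6 calls of miR157, 0 were in category 0, 1 in category 1, 4 in category 2 and 1 in category 3. Category 0 held 47.1% of the calls of miR156, 0% of those of miR157 and 48.1% of those of other miRNAs. Category 2 held 41.2%, 66.7% and 20.2%. With both miRNAs pooled the shares were 34.8% in category 0 and 47.8% in category 2. These calls repeat few sites, as all 6 calls of miR157 and 6 of the 8 category 0 calls of miR156 were of 1 site each.

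**Figure D1:**
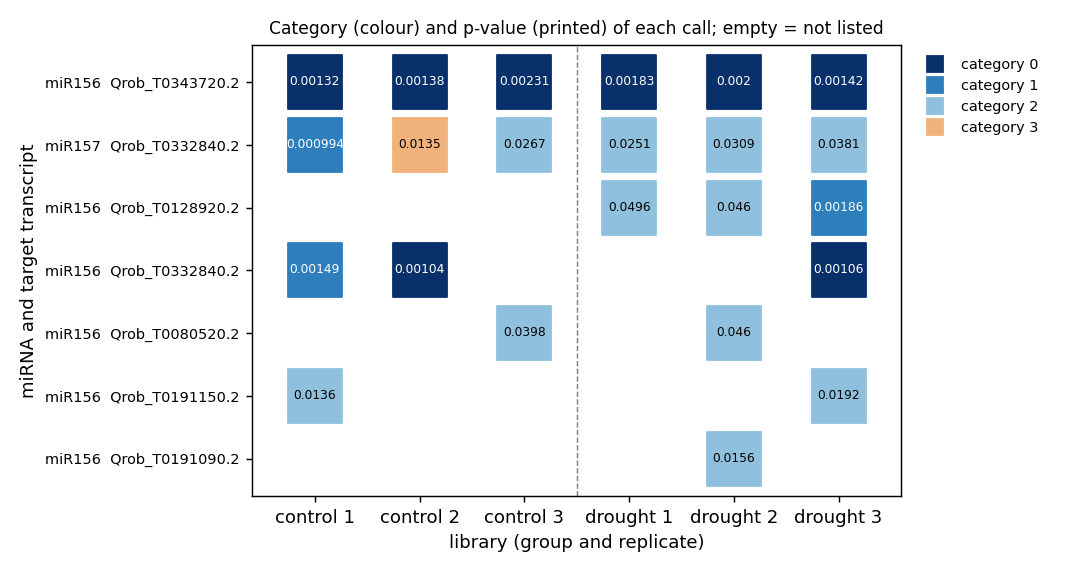
Calls of the 7 miR156 and miR157 sites (vertical axis, by miRNA and transcript) in the 6 libraries (horizontal axis), with the category as colour and the deposited p-value printed; empty positions were not listed. Only the miR156 site on Qrob_T0343720.2 and the miR157 site on Qrob_T0332840.2 were called in all 6 libraries, and the miR156 site on Qrob_T0128920.2 was called in the drought libraries alone.

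Of the 7 sites 2 were called in all 6 libraries, 1 of each miRNA, a pattern seen in 18% of all 89 sites. Of the remaining 5 sites 2 were called in 3 libraries, 2 in 2 libraries and 1 in 1 library.

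The constant target of miR156 was Qrob_T0343720.2, the transcript annotated as an SPL protein, with slice position 1302. It was in category 0 in all 6 libraries. Its p-value was 0.00132, 0.00138 and 0.00231 in control replicates 1, 2 and 3. Under drought it was 0.00183, 0.00200 and 0.00142. The highest and the lowest value were both in control libraries, so the groups overlapped. Log10 p averaged -2.79 ± 0.134 for control libraries and -2.76 ± 0.0777 for drought libraries (mean ± SD, n = 3 per group). Their difference of 0.0304 was smaller than the SD of either group. The exact two-sided permutation test gave p = 0.8 (adjusted p = 0.9 over the 16 sites called in all libraries). Among those 16 sites the control and drought values were apart in 6.25%. With 3 libraries in each group the smallest p that this test allows is 0.1.

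The p-value of a call depends on the share of transcriptome positions in the same category (the category density) and on the rank of the alignment among those of the miRNA, with rank 1 the best. Both were recovered from the p-values. The alignment on Qrob_T0343720.2 had rank 4 in control replicates 1 and 2, 7 in control replicate 3, 6 in drought replicates 1 and 2 and 4 in drought replicate 3. The density of category 0 was 0.0330%, 0.0346% and 0.0330% in control and 0.0305%, 0.0334% and 0.0355% under drought. The spread of p at this site therefore followed the rank more than the density. The call in control replicate 3 was of the miR156 sequence shown (Allen score 1), and those in the other libraries had an Allen score of 2. The log10 p values thus did not come from 1 alignment. Without control replicate 3 the group difference was 0.108 (p = 0.2, exact two-sided permutation test). The calls in the other libraries shared an MFE ratio of 0.872, yet their ranks were 4 or 6.

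**Figure D2:**
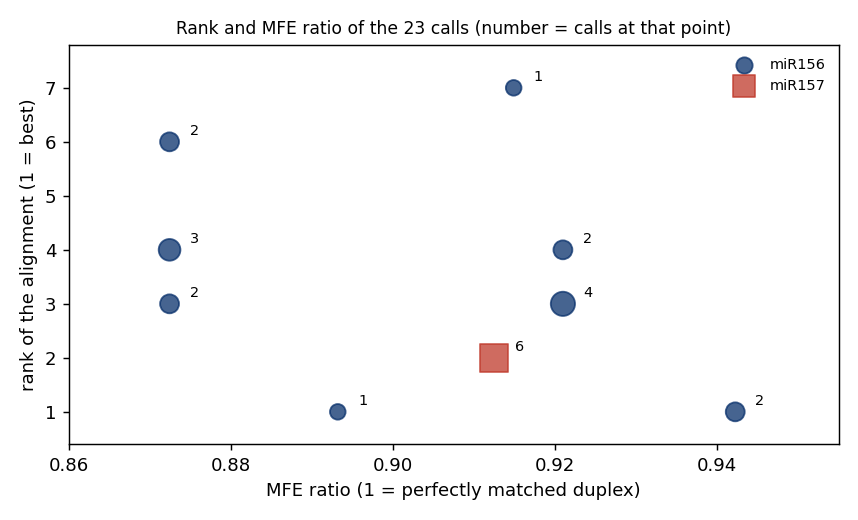
Rank of the alignment (vertical axis, 1 is best) against MFE ratio (horizontal axis) for the 23 calls, with a symbol for each miRNA, symbol area growing with the number of calls, and that number printed beside it. The calls at MFE ratios of 0.942 and 0.893, on the second target sequence, were at rank 1, those of miR157 at rank 2, and those on the first target sequence at ranks 3 to 7.

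The constant target of miR157 was Qrob_T0332840.2, with slice position 505. Its p-value was 0.000994, 0.0135 and 0.0267 in control replicates 1, 2 and 3, in categories 1, 3 and 2. Under drought it was 0.0251, 0.0309 and 0.0381, in category 2 throughout. Control replicate 1 was far below all other libraries, and control replicate 3 lay within the drought range, so the groups overlapped. Log10 p averaged -2.15 ± 0.754 for control libraries and -1.51 ± 0.0904 for drought libraries (mean ± SD, n = 3 per group). The difference of 0.639 corresponds to a geometric mean p that was 4.36-fold higher under drought. This difference was below the control SD and above the drought SD. The exact two-sided permutation test gave p = 0.2 (adjusted p = 0.8). Without control replicate 1 the difference was 0.212 (two-sided exact permutation test, p = 0.3). The alignment had rank 2 in every library. The density of category 2 was 1.36%, 1.43% and 1.35% in control and 1.26%, 1.56% and 1.92% under drought. At a constant rank the p-values within this category follow the density by construction, since it was recovered from p-values. The mean category was 2 in both groups.

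**Figure D3:**
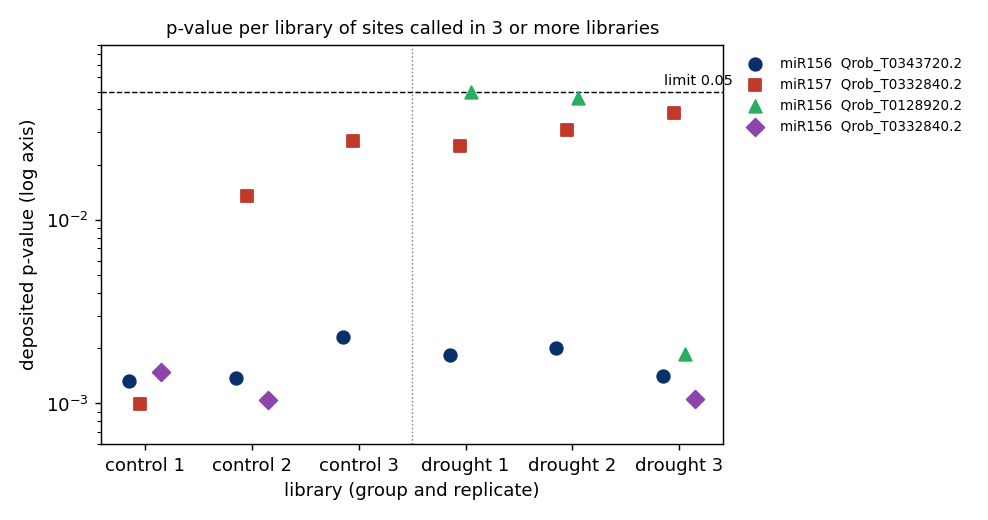
Deposited p-value (vertical log axis) of the 4 sites called in 3 or more libraries, by library (horizontal axis), with 1 symbol per site and the limit of 0.05 dashed. The miR156 site on Qrob_T0343720.2 stayed between 0.00132 and 0.00231, the miR157 site on Qrob_T0332840.2 ran from 0.000994 to 0.0381, and the miR156 site on Qrob_T0128920.2 appeared in drought libraries alone, between 0.00186 and 0.0496.

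The constant sites of the relatives were compared within each library. The miR157 site had a category number that was higher by 2 on average, and higher in 6 of 6 libraries. Because the miR156 site was in category 0, the lowest number possible, in every library, the direction of this difference was fixed by the choice of sites. It is therefore a description with no test.

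Both miRNAs met on Qrob_T0332840.2. Their target sites overlapped in all 18 bases of the miR156 site, and their slice positions were adjacent, 504 for miR156 and 505 for miR157. Position 504 was called with miR156 in control replicates 1 and 2 and drought replicate 3, with p of 0.00149, 0.00104 and 0.00106. In control replicate 1 both positions were in category 1, that of a shared maximum. In control replicate 2 and drought replicate 3 position 504 was the single maximum of the transcript, in category 0, while 505 was in category 3 and category 2. In control replicate 3 and drought replicates 1 and 2 position 504 was not listed, and 505 was in category 2.

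The position 504 had rank 3 in each of its calls. At that rank a category 2 position would have had a p-value of 0.0398 in control replicate 3, 0.0375 in drought replicate 1 and 0.0460 in drought replicate 2. These lie below the limit of 0.05 in each of the 3 libraries in which 504 was not listed. In drought replicate 3 it would have been 0.0566, so a category 2 call at rank 3 could not have been listed there. The rank in libraries without a call is unknown. The same miR156 and target sequences had rank 4 on Qrob_T0128920.2 in drought replicates 1 and 3. At rank 4 a category 2 position would have had 0.0528 in control replicate 3 and 0.0609 in drought replicate 2, above the limit. In drought replicate 1 it would have had 0.0496. The call at 504 was present in 2 of 3 control and 1 of 3 drought libraries (two-sided Fisher's exact test, p = 1).

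Qrob_T0128920.2 was the only one of the 7 sites that was called in all 3 drought libraries and in no control library. Among all 89 sites 2.25% had this pattern, and 2.25% had the opposite one, which 0 of the 7 sites had. The slice position was 1152 with miR156. The p-value was 0.0496, 0.0460 and 0.00186 in drought replicates 1, 2 and 3, in categories 2, 2 and 1. The first lay just inside the limit of 0.05, and drought replicate 3 stood far below the other pair. The two-sided Fisher's exact test of presence gave p = 0.1, the smallest possible, and an adjusted p of 1 over the 89 sites. Of the 89 sites 0 had an unadjusted p under 0.05 in this test.

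The reach of the p-value limit was worked out for this site in every library. The calls of drought replicates 1 and 3 were of the miR156 sequence shown (Allen score 1), at rank 4. That of drought replicate 2 had an Allen score of 2, at rank 3, so the drought calls were not of 1 alignment. In category 2 a call at rank 3 would have had p of 0.0403, 0.0424 and 0.0398 in control replicates 1, 2 and 3 and would have been listed. At rank 4 it would have had 0.0534, 0.0561 and 0.0528, and it would have been listed in 0 of the 3 control libraries. Drought replicate 1, with the lowest category 2 density of 1.26%, was the single library in which rank 4 passed in category 2. A category 2 signal at rank 4 could thus not have appeared in the control tables. The limit did not hide categories 0 and 1. At rank 4 a signal on Qrob_T0128920.2 would have had p of 0.00199, 0.00182 and 0.00197 in category 1. It would have been listed in all 3 control libraries. In category 3 it would have had 0.0268 and 0.0225 in control replicates 2 and 3, also inside the limit. The value of control replicate 3 is less firm, as its category 3 density rests on 2 calls. For control replicate 1 the category 3 value of 0.0275 is uncertain, as the density rests on 1 call whose step was divided by 4. With p-values recomputed at the highest density that any library had in a category, the site was left in drought replicate 3 alone.

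**Figure D4:**
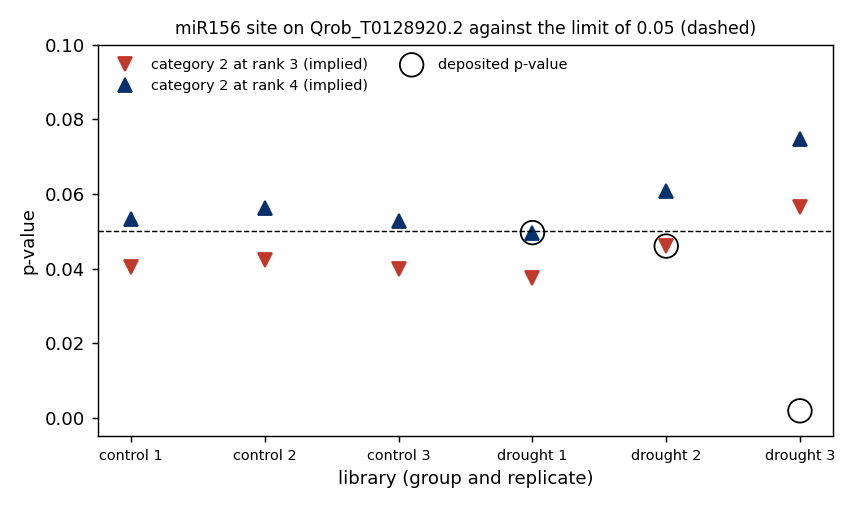
p-value (vertical axis) that the miR156 site on Qrob_T0128920.2 would have in category 2 at rank 3 and at rank 4 (filled triangles) in each library (horizontal axis), with the deposited p-values as open circles and the limit of 0.05 dashed. At rank 4 the 3 control libraries lie at 0.0528 to 0.0561, above the limit, and drought replicate 1 lies at 0.0496, below it.

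The last 3 sites of miR156 were called in 1 or 2 libraries, in category 2 throughout. On Qrob_T0080520.2 slice position 649 was called in control replicate 3 with a p-value of 0.0398 and in drought replicate 2 with 0.0460, at rank 3. On Qrob_T0191150.2 slice position 150 was called in control replicate 1 with a p-value of 0.0136 and in drought replicate 3 with 0.0192, at rank 1. On Qrob_T0191090.2 slice position 122 was called in drought replicate 2 alone, with a p-value of 0.0156, at rank 1. The pair of sites called in 2 libraries were thus present in 1 control and 1 drought library each (two-sided Fisher's exact test, p = 1). At rank 1 a category 2 position would have been listed in all 6 libraries. The second target sequence was called in 3 libraries and the first in all 6.

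Sites were also counted per library to ask whether drought changed the number of miR156 and miR157 targets. In control replicates 1, 2 and 3 miR156 had 3, 2 and 2 sites. Under drought it had 2, 4 and 4. Drought replicates 2 and 3 had more sites than any control library, and drought replicate 1 had as few as the lowest. The average was 2.33 ± 0.577 for control and 3.33 ± 1.15 for drought (mean ± SD, n = 3 per group). The difference of 1.00 site was above the control SD and below the drought SD. The exact two-sided permutation test gave p = 0.4 (adjusted p = 1 over the 27 miRNA names). With the p-value limit of 0.01 the average was 1.67 in each group, and at the highest common density the difference was 0.333 site. miR157 had 1 site in every library. Together the sites made up 10.8%, 6.67% and 8.11% of all sites in the control libraries and 9.09%, 12.2% and 13.2% in the drought libraries. When sites with the same target sequence were merged, the miR156 averages were 1.33 and 1.67, a difference of 0.333 (p = 1, exact two-sided permutation test). When instead the overlapping miR156 and miR157 sites were counted once, the groups differed by 1.33 sites (two-sided exact permutation test, p = 0.3).

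Drought replicates 2 and 3 also differed from the other 4 libraries in the day on which the calling tool was run, per the file headers, and no control library was run on their day. Among the libraries of the earlier day the mean number of miR156 sites was 2.33 in control and 2.00 in drought replicate 1. Category 4 density, the share of positions with 1 read, ranged from 2.24% to 2.42% over the control libraries. It could not be recovered for drought replicate 1. In drought replicates 2 and 3 it was 2.87% and 3.27% if their category 4 calls were at rank 1. That rank was assumed, as each of these libraries had 1 distinct p-value in category 4. At a higher rank number their densities would be lower, so this contrast with control is uncertain. The same pair of libraries had the highest read totals in the study's own summary, which was not analysed here. The part of these differences in the number of sites was not tested.

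The alignment scores of miR156 were compared over all its calls, which pool the sequence shown (Allen score 1) with calls at Allen score 2. The latter were 3 of 7 calls in control and 5 of 10 under drought, and the mean Allen score follows that share. The mean Allen score of miR156 calls was 1.39 in control and 1.50 under drought (p = 0.7, exact two-sided permutation test). The mean MFE ratio was 0.903 and 0.900 (p = 0.7 by the same exact test).

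Related miRNAs are given for comparison. miR172, which acts after miR156 in the phase change of Arabidopsis, had 5 sites over all libraries, with 3, 3 and 2 in control and 1, 2 and 1 under drought. The difference was -1.33 sites, with an SD of 0.577 in each group (p = 0.2, exact two-sided permutation test, adjusted p = 1). miR535, which resembles miR156 in sequence, had 2 sites, with 1, 2 and 0 in control and 0, 1 and 0 under drought.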

How the data were processed

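Degradome libraries of oak root RNA were compared (6 libraries, 3 control and 3 drought, single-end reads of 50 nt per the labels). CleaveLand4 (version 4.5 per the file headers) was run by the authors library by library, on the longest transcripts of the Quercus robur PM1N set, keeping calls in categories 0 to 4 with a p-value up to 0.05. The deposited p-values are not corrected for the number of miRNAs searched. The deposited MFE ratio is a fraction of 1. The deposited Allen score and category (a score from 0 to 4) were used as given, as were the deposited positions. The tables hold no read counts, and the study's read totals, not analysed here, were highest in drought replicates 2 and 3.

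p equals 1 − (1 − density) to the power of rank, so −ln(1 − p) within a library and category takes whole multiples of a unit step, which was found as the largest that suits every value (tolerance 0.001 per unit of divisor, divisors up to 60). Category 3 steps were divided to match alignments shared with control replicate 2, or its density where none was shared. In control replicate 1 the category 3 step rested on 1 call and was divided by 4. The search was tested on simulated data, but not for categories with few calls in a library. Those include category 3 in every library but control replicate 2. A whole multiple of the true step counted as recovered where all ranks shared that factor. Groups were compared by two-sided exact permutation tests over 20 assignments, and presence by Fisher's exact test, with Benjamini-Hochberg adjustment over all names, sites or constant sites of the series. A sign-flip test of the categories of the constant sites was left out of the results, since one site is at the lowest category throughout. All miR156 and miR157 sites were named, and 1 sequence listed as miR156 is not reported here, while its calls are included in all values given for miR156 as a whole. The members and lists were chosen with earlier results of these data known. The alternatives comprised calls in categories 0 to 2, calls with p under 0.01, merged target sequences, 1 common density, overlapping sites counted once, a replicate block and each library left out. Scripts ran in Python 3.11.15 with scipy 1.17.1, pandas 2.3.3 and numpy 2.4.6, and figures were drawn with matplotlib 3.10.9.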

Additional observations from a re-analysis of the deposited data

How the results depend on the processing

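With 3 libraries per group no comparison of control with drought could pass 0.05, so only directions and counts are described. Of 41 values recomputed with all libraries under another setting, 32 kept the direction or the count, 8 moved it and 1 reversed it. With the p-value limit of 0.01 the difference in sites was 0 for miR156, -0.333 for miR157 and -0.333 for both, 1 site was called in all libraries and 0 sites separated the conditions. With categories 0 to 2 it was 0.333 for miR157, and 1 site was called in all libraries. Merged target sequences or 1 common density left 0 sites in drought alone. The earlier run day alone, chosen after seeing the data, gave -0.333 for miR156 and for both. The cause was not tested, except that category 2 calls cannot pass 0.01.

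Without 1 library in turn, the difference in miR156 sites ran from 0.667 to 1.67, the log10 p difference of the constant miR156 site ran from -0.0134 to 0.108, the category difference of the miR157 site from -0.5 to 0.5, the Allen score difference from -0.0833 to 0.25 and the MFE ratio difference from -0.0102 to 0.00401. The category of the miR157 site above that of the miR156 site ran from 1.8 to 2.2, a description with no test. Libraries of the same replicate number did not deviate together (correlations over 89 sites -0.106, -0.0456 and -0.141), and with a replicate block the difference in miR156 sites was 1.00 (exact sign-flip permutation test, p = 0.5).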

Other observations

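The sites on Qrob_T0191150.2 and Qrob_T0191090.2 shared a target sequence and lay within the first 159 bases of their transcripts. They were called in control replicate 1 and drought replicate 3, and in drought replicate 2, so no library held both.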
